A study of Mus musculus with 6 samples.

Results

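The nuclear genes for the subunits of oxidative phosphorylation were followed through TGF-β treatment and withdrawal in NMuMG cells, an immortalised line of normal mouse mammary gland epithelium. All genes were taken whose array annotation gave a single symbol starting with Nduf, Uqcr, Cox4 to Cox8 or Atp5, or equal to Sdha, Sdhb, Sdhc or Sdhd, and each was represented by its probe set with the highest mean over the arrays. The rule found 90 of the 18193 genes tested. They comprised 34 subunits of complex I, 4 of complex II, 8 of complex III, 19 of complex IV and 17 of complex V, plus 8 assembly factors of complex I (Ndufaf1 to Ndufaf8), which build the complex without remaining in it. The genes were matched by symbol, but the rule was set with earlier results of these data known, and measured means chose each probe set. A gene whose probe sets all carried several symbols was not analysed here with the others.

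Total RNA from 3 groups of 2 arrays each was measured on 1-colour Affymetrix arrays. Control cells received vehicle. Cells of the TGF-β group received 4 ng/ml TGF-β for 11 days, and cells of the withdrawal group received the same treatment and then 13 days without TGF-β. All groups grew in medium with serum and insulin. Nothing in the labels states that both arrays of a group are from different cultures, so each p-value reflects only the spread between these arrays, which may be technical. The withdrawal cells had also been kept 13 days longer than the TGF-β cells, and time and withdrawal cannot be told apart. The sample titles give no culture time for the control cells, so time in culture and treatment cannot be told apart in comparisons with control either.

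Oxidative phosphorylation passes electrons from NADH through complex I, or from succinate through complex II, to ubiquinone, then through complex III and cytochrome c to complex IV, which reduces oxygen. Complexes I, III and IV pump protons across the inner mitochondrial membrane, and complex V, the ATP synthase, uses the returning protons to make ATP. The complexes combine subunits made from nuclear genes with a few made inside the mitochondrion, so both sets of genes and many assembly factors are needed. TGF-β drives epithelial cells such as NMuMG into a mesenchymal state, and the study followed cells into that state and after removal of the factor.

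Values are log2 expression, so a difference of 1 is a 2-fold change, and the arrays had medians of 5.77 to 5.79. Of the 90 genes, 86 lay above the median of all probe sets and 4 (Ndufb4, Cox4i2, Cox6b2 and Cox7b2) at or below it, where a value cannot be separated from background here. On average the marker genes followed the treatment fields: the mean of 5 contractile and mesenchymal genes was 7.83 and 7.87 on the control arrays, 11.58 and 11.66 with TGF-β, and 8.22 and 8.14 after withdrawal, and that of 5 epithelial genes was 11.19 and 11.12, then 9.55 and 9.57, then 10.75 and 10.75. These means do not hold for each gene. Cdh1, E-cadherin, fell by 3.63 with TGF-β and rose by 3.49 on withdrawal, whereas Krt8 and Krt18, epithelial keratins, were at -0.94 and -0.53 against control after withdrawal (adjusted p = 3.06e-05 and 0.000288), with Krt8 lower than with TGF-β (-0.22, adjusted p = 0.0141), as was Epcam, an adhesion protein (-0.27, adjusted p = 0.0301). Fn1, fibronectin, rose further by 0.46 on withdrawal, to 2.11 above control (adjusted p = 3.9e-06). The sample descriptions attach the names of the transition and of its reversal to the treated groups the other way round, and titles and treatment fields were followed. Means over the macrophage and leukocyte (5 genes), endothelial (4) and adipocyte (4) markers lay between 3.97 and 5.14 on all arrays. Cd68, a macrophage marker, was at 0.88 above control after withdrawal (adjusted p = 0.00333, limma). The other 4 genes of its list were not called in that comparison, and 3 of them were below 0. The difference between the 3′ and 5′ control probe sets of Actb, a sign of RNA quality, was 0.17 and 0.18 on the control arrays, 0.14 on both TGF-β arrays and 0.34 and 0.36 on the withdrawal arrays. That of Gapdh was -0.17 and -0.18 in control, -0.18 and -0.15 with TGF-β, and -0.14 on both withdrawal arrays. The part of either in the withdrawal results was not tested.

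TGF-β treatment was accompanied by falls in 20 subunits (11 of complex I, 3 of II, 2 of III, 0 of IV and 4 of V) and in assembly factors. The falls were 32.4%, 75%, 25%, 0% and 23.5% of the genes of complexes I to V. Withdrawal was accompanied by rises in subunits of complexes I to IV with falls in several assembly factors. A gene was called when limma's test, adjusted over all 18193 genes, gave an adjusted p under 0.05. With TGF-β against control, 3 of the 90 genes rose, when 15% of all genes were called higher, and 25 fell, when 17.5% of all genes were called lower, so the falls made up 27.8% of the 90. After withdrawal against TGF-β, 36 rose (40%, beside 21.8% of all genes) and 11 fell (12.2%, beside 22.1%). Against control, the withdrawal arrays had 27 genes higher (30%, beside 21.7%) and 21 lower (23.3%, beside 23.6%), so both shares of this last comparison lay nearer the background. The shares over all genes include dim genes, whereas 86 of the 90 lay above the median of all probe sets. Without the dimmest 40% of genes, 6 of the 84 left rose and 35 fell with TGF-β, beside 2862 and 3381 of 10916 genes. On withdrawal 41 rose and 11 fell, beside 3864 and 3761. Against control 33 were higher and 28 lower, beside 3831 and 3951. All later shares are to be read with this in mind. In these bulk samples fewer cells in a given state and less RNA per cell cannot be told apart.

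The shifts were small. Over the 82 subunits the median difference was -0.07 with TGF-β against control, 0.12 after withdrawal against TGF-β and 0.05 after withdrawal against control, beside -0.01, -0.03 and -0.04 over all genes. The last of the subunit medians became 0.0097 without withdrawal replicate 2, 0.0212 without control replicate 1 and -0.0208 without probe sets ending in x, s or a. Differences of at least 1 occurred in 0, 2 and 2 of the 90 genes. The 3 comparisons share their arrays and are not independent of each other. The count of 25 falls with TGF-β became 15 without TGF-β replicate 2, 13 without control replicate 1 and 12 without control replicate 2. The 11 falls from TGF-β to withdrawal became 5 without withdrawal replicate 1 and 6 without any of the control or TGF-β arrays, and the 21 falls of withdrawal against control became 12 without either control array.

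Scaling the arrays to their spiked control RNAs moved all genes together and with them the count in each direction. The poly-A spike mean was 8.68 and 8.38 in control, 8.89 and 8.75 with TGF-β, and 8.63 and 8.71 after withdrawal. The hybridization spike mean was 10.93 and 10.83, then 11.04 on both arrays, then 11.35 and 11.17. The spikes thus also differed between arrays of some groups, and this spread enters the scaled values. The median of all genes went to -0.30, 0.12 and -0.18 in the 3 comparisons with the poly-A spikes, and to -0.17, -0.25 and -0.42 with the hybridization spikes. The share of called genes that were higher, 46.2%, 49.6% and 47.9% as deposited, became 13.3%, 70.0% and 34.5% with the poly-A spikes and 23.0%, 21.6% and 11.6% with the hybridization spikes. Directions are therefore given relative to the bulk of genes. The median of the subunits minus that of all genes was -0.05, 0.15 and 0.09, and since the scaling adds a single constant to each array, no spike scaling can change such a difference between medians. The spike scalings were applied to values already normalised between arrays, so they do not give absolute amounts of RNA. On the scale of the hybridization spikes the counts of higher and lower genes among the 90 were 0 and 29, 7 and 14, and 3 and 54. Over all 18193 genes they were 1319 and 4408, 2146 and 7772, and 1655 and 12634, so the 54 were a smaller share than over all genes. With the poly-A spikes the counts were 0 and 36, 23 and 3, and 4 and 10 of the 90. Over all genes those were 818 and 5334, 3506 and 1500, and 1967 and 3730. Later counts on a spike scale are to be read beside these counts over all genes.

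**Figure D1:**
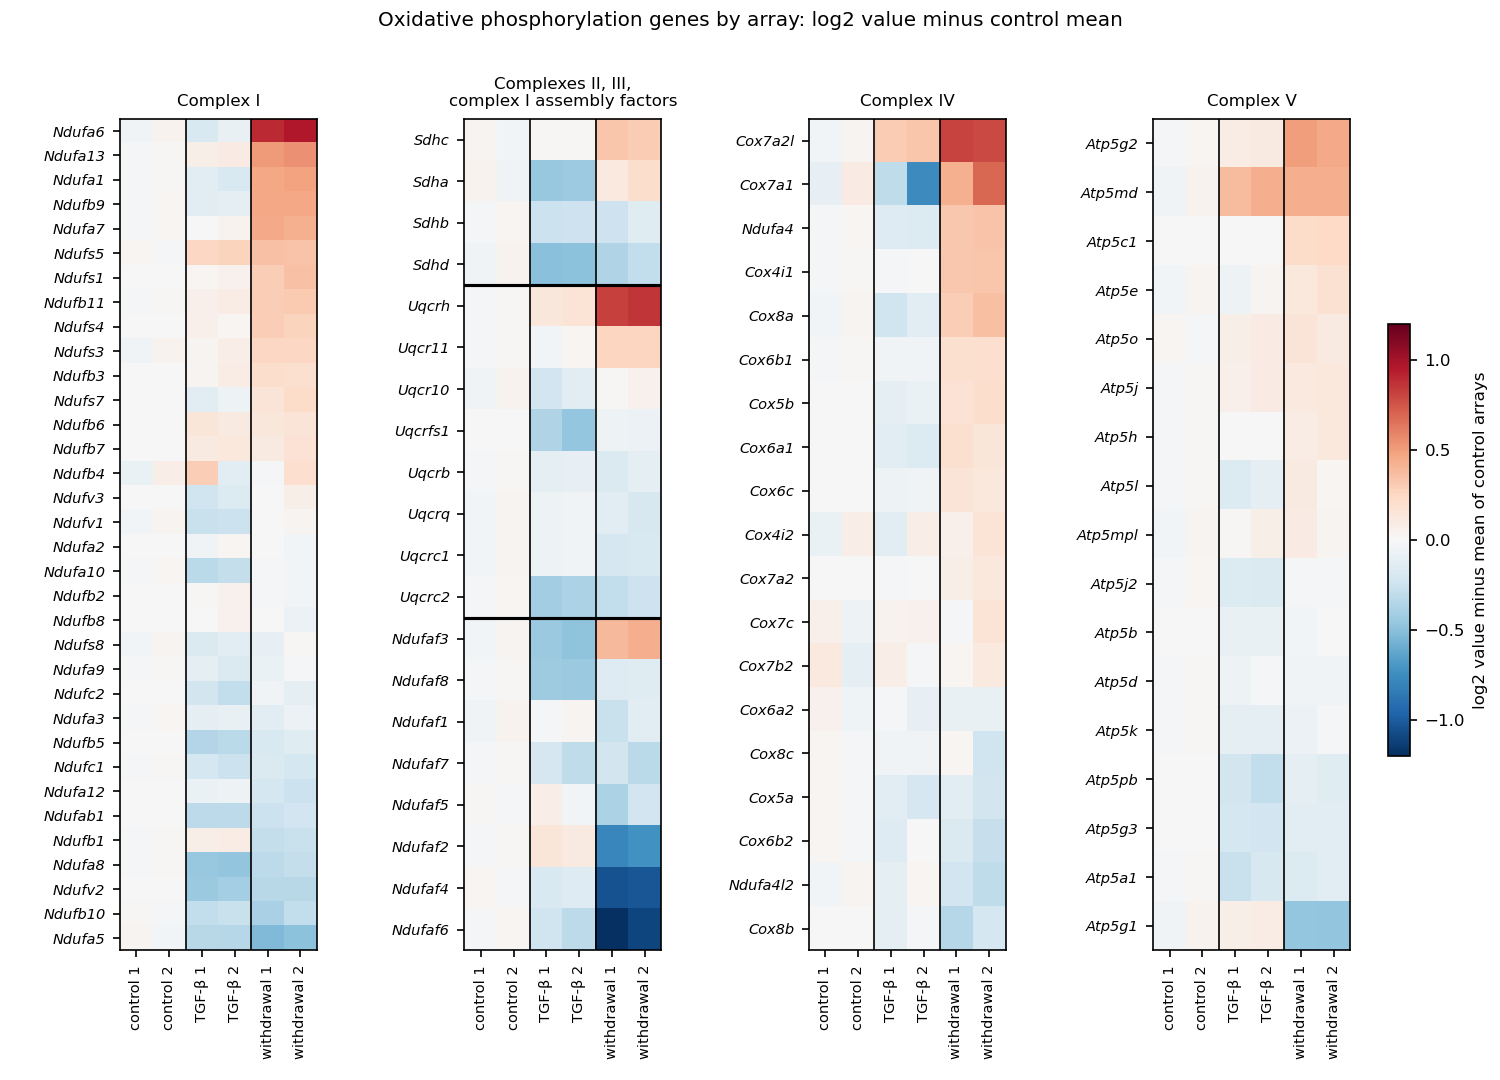
Each row is a gene and each column an array, coloured by the log2 value minus the mean of the 2 control arrays (red higher, blue lower), with genes grouped by complex and sorted by withdrawal against control. Rows such as Sdha, Ndufa8 and Uqcrfs1 are blue on both TGF-β arrays, Ndufa6, Uqcrh and Cox7a2l are red on both withdrawal arrays, and Ndufaf2, Ndufaf4 and Ndufaf6 are blue there.

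Complex I takes electrons from NADH. Its core subunits in the matrix arm are made from nuclear genes, of which 6 were analysed here, and those in the membrane arm from mitochondrial DNA. Relative to the bulk of genes 2 of the 6 fell with TGF-β (Ndufv1 and Ndufv2, which form the NADH-oxidising end), 4 rose from TGF-β to withdrawal, and against control 3 were higher and 1 lower after withdrawal (on the hybridization spike scale 0 were higher there and 3 lower). As deposited these were 33.3%, 66.7%, 50% and 16.7% of the 6, beside 17.5%, 21.8%, 21.7% and 23.6% of all genes. Ndufv2 was at 11.81 and 11.82 on the control arrays, 11.37 and 11.41 with TGF-β, and 11.48 on both withdrawal arrays. Both treated groups lay below the control arrays without overlap, at -0.43 (SE 0.05, 1.34-fold lower, adjusted p = 0.00121) and -0.34 (SE 0.05, adjusted p = 0.00201). Ndufv1, its flavin-binding partner, was at 11.67 and 11.73, then 11.43 and 11.45, then 11.71 and 11.73. It fell by 0.26 (SE 0.05, adjusted p = 0.0102) and rose by 0.28 on withdrawal (SE 0.05, adjusted p = 0.00582), to a level 0.01 from control (adjusted p = 0.845). Ndufs1, the iron-sulfur subunit, did not differ between control (10.22 on both arrays) and TGF-β (10.24 and 10.27) by the test, and was at 10.51 and 10.57 after withdrawal, 0.32 above control (SE 0.05, adjusted p = 0.00308).

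Among the 28 accessory subunits of complex I, which surround the core, 1 rose and 9 fell with TGF-β, 12 rose and 3 fell from TGF-β to withdrawal, and 9 were higher and 8 lower after withdrawal than in control (1 and 17 on the hybridization spike scale). As deposited the shares were 3.57% and 32.1%, 42.9% and 10.7%, and 32.1% and 28.6%. Those over all genes were 15% and 17.5%, 21.8% and 22.1%, and 21.7% and 23.6%. The largest rise was that of Ndufa6, an accessory subunit that anchors the mitochondrial acyl carrier protein. It was at 10.95 and 11.04 in control, 10.81 and 10.91 with TGF-β, and 11.89 and 11.96 after withdrawal. The withdrawal arrays stood above all the others, 2.09-fold above TGF-β (log2 1.06, SE 0.06, adjusted p = 5.73e-05) and 1.90-fold above control (log2 0.93, SE 0.06, adjusted p = 8.54e-05), whereas TGF-β and control did not differ by the test (-0.13, adjusted p = 0.179).

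Ndufb9, which holds the other copy of the acyl carrier protein, was at 11.88 and 11.93, then 11.78 and 11.79, then 12.37 on both withdrawal arrays, 0.58 above TGF-β (SE 0.05, adjusted p = 0.00022). Ndufa1, a small membrane-arm subunit encoded on the X chromosome, was at 12.76 and 12.79, then 12.64 and 12.60, then 13.25 and 13.26, a rise of 0.63 on withdrawal (SE 0.05, adjusted p = 0.000161). Ndufa13, also known as the cell death regulator GRIM-19, and Ndufa7 stood 0.53 and 0.44 above control after withdrawal (adjusted p = 0.000284 and 0.000791), with no call under TGF-β for either. In all 4 genes the withdrawal arrays lay above the control and TGF-β arrays without overlap. With either spike scaling the calls of Ndufb9, Ndufa1, Ndufa13 and Ndufa7 against control were lost, while that of Ndufa6 was kept.

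Other accessory subunits fell with TGF-β, and several were below control after withdrawal as well. Ndufa8, on the intermembrane-space face of the complex, was at 11.83 and 11.86 in control, 11.39 and 11.38 with TGF-β and 11.53 and 11.56 after withdrawal. It fell by 0.46 (SE 0.05, 1.38-fold, adjusted p = 0.000873) and remained 0.30 below control (log2 -0.30, SE 0.05, adjusted p = 0.00344). Its partial rise from TGF-β to withdrawal (0.16, adjusted p = 0.0385) kept its call in 5 of 16 other settings and lost it when any array was left out. Ndufa5, in the part of the complex that reduces ubiquinone, was at 10.69 and 10.63, then 10.32 on both arrays, then 10.13 and 10.17. Its withdrawal arrays were the lowest, at -0.51 against control (SE 0.05, 1.43-fold lower, adjusted p = 0.000427). Ndufb10 was at -0.28 with TGF-β (adjusted p = 0.0127) and -0.34 after withdrawal (adjusted p = 0.00373), the former call being lost without TGF-β replicate 1 or either control array (adjusted p up to 0.0723). Ndufb5 fell by 0.34 with TGF-β (SE 0.05, adjusted p = 0.00321). Its rise of 0.17 on withdrawal (adjusted p = 0.0324) and its difference of -0.16 from control (adjusted p = 0.0368) were both lost when any array was left out. Ndufa10 fell by 0.30 (adjusted p = 0.00566) and rose by 0.28 on withdrawal (adjusted p = 0.00562), to -0.03 against control (adjusted p = 0.732). Ndufs5 was the only accessory subunit of complex I called higher with TGF-β, at 0.26 (SE 0.05, adjusted p = 0.0103), a call lost without TGF-β replicate 2 or control replicate 2 and turned to -0.03 on the poly-A scale. Ndufb1 was at -0.28 against control after withdrawal (adjusted p = 0.00468).

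**Figure D2:**
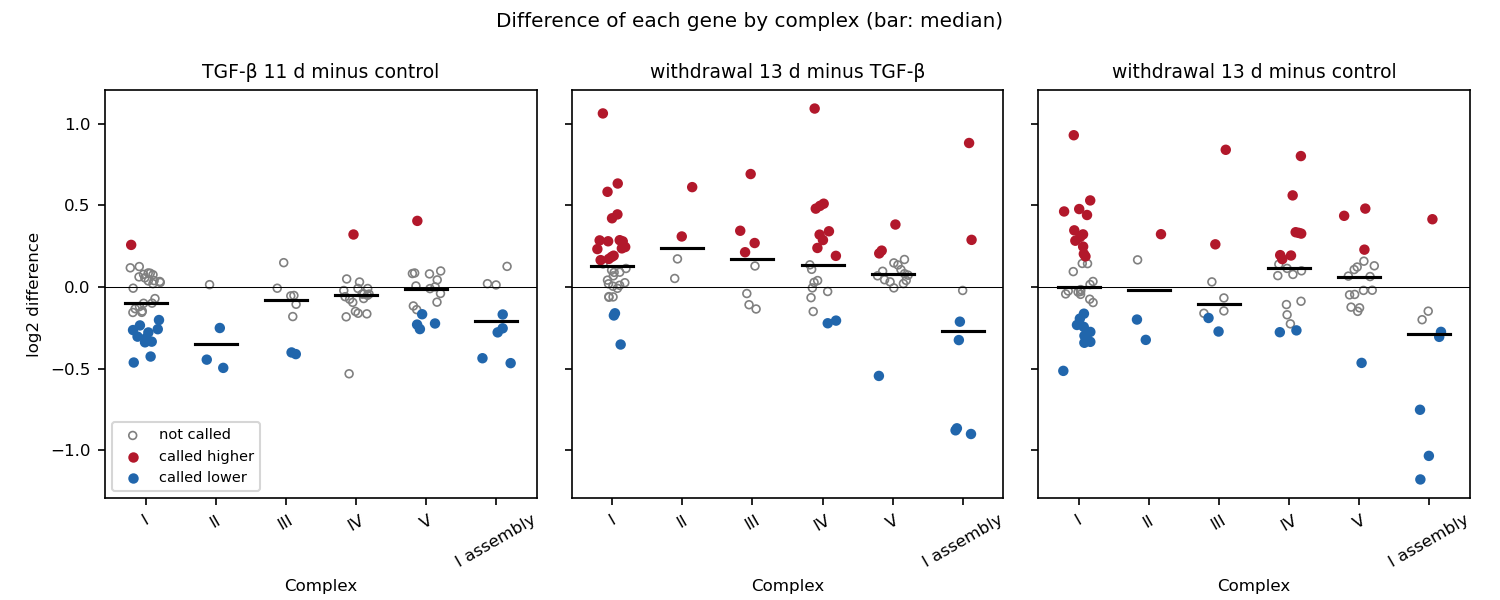
Each point is a gene, with the log2 difference between 2 groups on the vertical axis and the complex on the horizontal axis, filled where called (red higher, blue lower), and bars mark medians. The medians with TGF-β lie below 0 in every complex, from -0.35 in complex II to -0.01 in complex V, and those of the 5 complexes lie above 0 from TGF-β to withdrawal, where the hybridization spike scale puts those of complexes I, III, IV and V below 0.

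Complex II, succinate dehydrogenase, is also an enzyme of the citric acid cycle and is built of 4 nuclear-encoded subunits. With TGF-β 3 of the 4 fell (75%, beside 17.5% of all genes) and Sdhc did not pass the test. The median difference was -0.35. Sdha, the flavoprotein that oxidises succinate, was at 11.33 and 11.25 in control, 10.83 and 10.85 with TGF-β, and 11.41 and 11.50 after withdrawal. The TGF-β arrays lay below all the others, 0.45 lower on the log2 scale than control (log2 -0.45, SE 0.06, 1.36-fold, adjusted p = 0.00221) and 1.53-fold below withdrawal (log2 0.61 for withdrawal minus TGF-β, SE 0.06, adjusted p = 0.000377). Withdrawal and control did not differ by the test (0.17, adjusted p = 0.0668). A second, dimmer probe set of Sdha did not show the fall (-0.06, adjusted p = 0.574 over all probe sets) and put withdrawal above control (0.39, adjusted p = 0.00302).

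Sdhd, a membrane anchor, was at 11.49 and 11.57 in control, 11.03 and 11.04 with TGF-β, and 11.17 and 11.24 after withdrawal. It fell by 0.50 (SE 0.06, 1.41-fold, adjusted p = 0.00113), the largest fall called among the 90 genes with TGF-β, and was still at -0.32 after withdrawal (SE 0.06, adjusted p = 0.00427). Both treated groups lay below control without overlap, and the rise from TGF-β to withdrawal missed the threshold (0.17, adjusted p = 0.0512). Sdhb, which carries the iron-sulfur clusters, was at 11.60 and 11.66, then 11.37 and 11.38, then 11.38 and 11.48, with -0.25 and -0.20 against control (adjusted p = 0.0203 and 0.0346). Leaving out any control or TGF-β array ended the TGF-β call of Sdhb (adjusted p up to 0.109), and its withdrawal call was lost in 9 of 16 other settings. Sdhc, the other anchor, was at 10.39 and 10.32, then 10.37 on both arrays, then 10.69 and 10.67, so that only the withdrawal arrays stood apart (0.32 above control, SE 0.05, adjusted p = 0.00322; -0.05 on the hybridization spike scale).

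**Figure D3:**
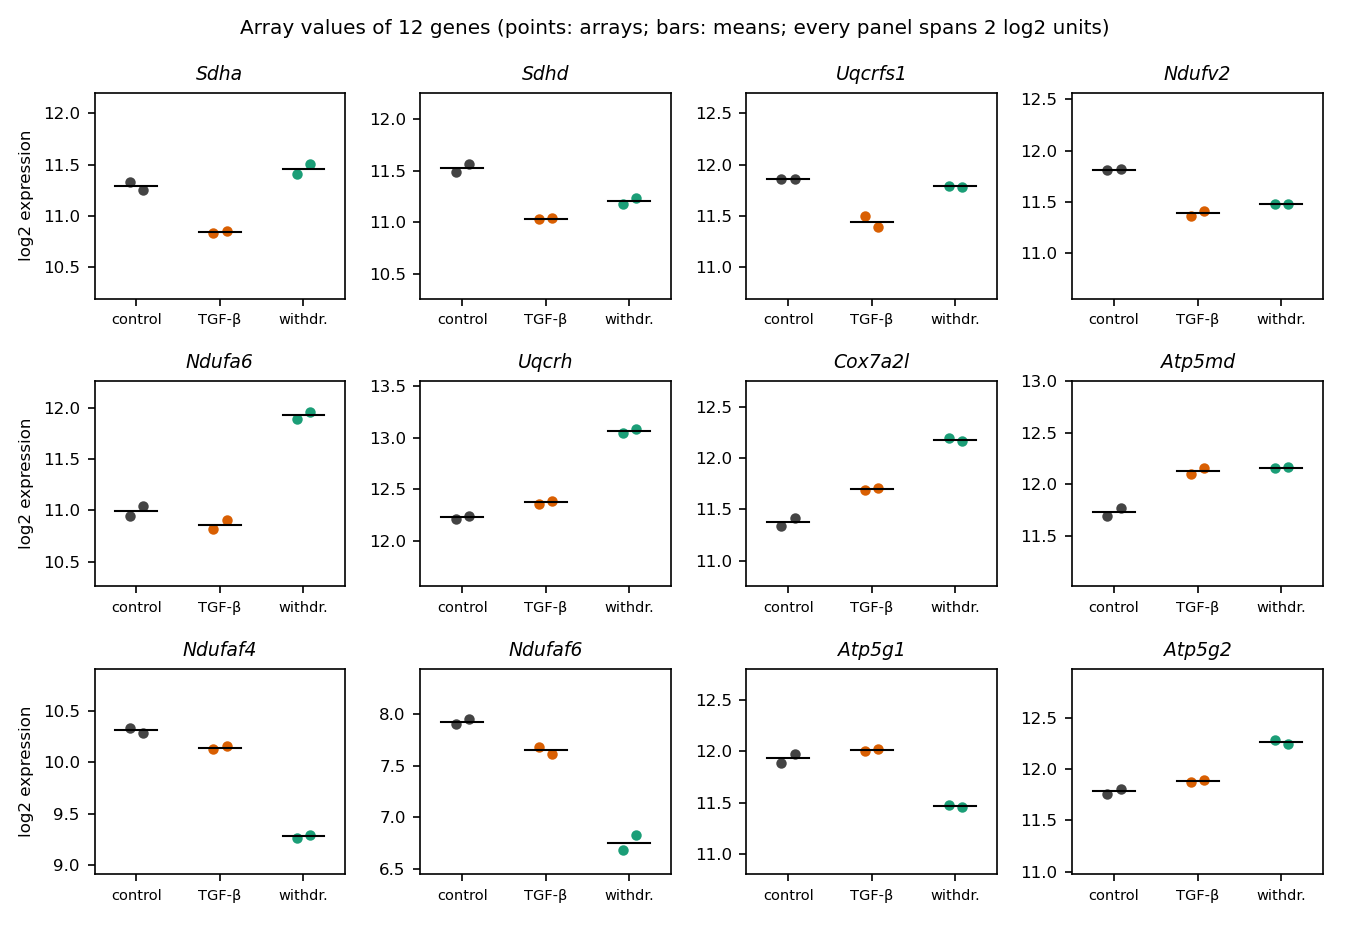
Points are the log2 values on the 2 arrays of each group for 12 genes, bars are means, and every panel spans 2 log2 units. Sdha, Sdhd, Uqcrfs1 and Ndufv2 are lowest with TGF-β, Ndufa6, Uqcrh, Cox7a2l and Atp5g2 are highest after withdrawal, and Ndufaf4, Ndufaf6 and Atp5g1 are lowest after withdrawal.

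Complex III passes electrons from ubiquinol to cytochrome c. The rule did not match its subunit gene Cyc1, which was placed in the list of ubiquinone synthesis and cytochrome c genes. Of the 8 genes that the rule matched 0 rose and 2 fell with TGF-β, and 4 rose and 0 fell from TGF-β to withdrawal. After withdrawal 2 were higher and 2 lower than in control (1 and 6 on the hybridization spike scale). The 2 falls with TGF-β were 25% (beside 17.5% of all genes) and the 4 rises 50% (beside 21.8%). Against control both shares were 25%, near the 21.7% and 23.6% of all genes. Uqcrfs1, the Rieske iron-sulfur protein, was at 11.86 on both control arrays, 11.50 and 11.39 with TGF-β, and 11.80 and 11.78 after withdrawal. It fell by 0.41 (SE 0.06, 1.33-fold, adjusted p = 0.00261) and rose by 0.34 (SE 0.06, adjusted p = 0.0037), to a value 0.07 under control (-0.07, adjusted p = 0.39). Uqcrc2, a core protein, was at 11.64 and 11.69, then 11.25 and 11.28, then 11.37 and 11.41, and was below control in both treated groups (-0.40, adjusted p = 0.002, and -0.27, adjusted p = 0.00651).

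Uqcrh, the hinge protein at the cytochrome c docking site, moved the other way. It was at 12.21 and 12.24 in control, 12.36 and 12.39 with TGF-β, and 13.04 and 13.09 after withdrawal. The TGF-β difference missed the threshold (0.15, adjusted p = 0.0737), and withdrawal stood 1.79-fold above control (log2 0.84, SE 0.05, adjusted p = 5.07e-05). A second probe set of Uqcrh gave 0.63 for the same comparison (adjusted p = 0.000627 over all probe sets). The withdrawal arrays were the highest for Uqcr11 as well, at 12.34 and 12.33 against 12.06 and 12.09 in control (0.26, adjusted p = 0.0073).

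In complex IV, cytochrome c oxidase, 0 of 19 genes fell with TGF-β (beside 17.5% of all genes) and 1 rose (5.26%, beside 15%). On the poly-A scale 5 fell and 0 rose. From TGF-β to withdrawal 9 rose and 2 fell (47.4% and 10.5%, beside 21.8% and 22.1%). Against control 8 were higher and 2 lower (42.1% and 10.5%, beside 21.7% and 23.6%). Leaving aside 8 isoforms restricted to certain tissues or conditions, 8 of the other 11 genes (72.7%) rose on withdrawal and 0 fell, with a median of 0.29. Of these 11, 7 (63.6%) were above control, with a median of 0.19 (under the hybridization spikes 0 rose, and 1 was above and 3 below control). Relative to the median of all genes these medians were 0.32 and 0.23.

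Cox7a2l, known for joining complexes III and IV in supercomplexes, rose in both treated groups. It was at 11.34 and 11.41 in control, 11.69 and 11.71 with TGF-β, and 12.19 and 12.17 after withdrawal, with no overlap between any of the groups. The differences from control were 0.32 (SE 0.05, 1.25-fold, adjusted p = 0.00531; lost under either spike scaling) and 0.80 (SE 0.05, 1.74-fold, adjusted p = 7.33e-05). Both of its other probe sets gave calls in the same directions (0.30 and 0.27 with TGF-β, 0.85 and 0.79 after withdrawal).

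Several complex IV subunits come as pairs, a form found in most tissues and a form known from muscle, testis, lung or hypoxic cells. Among the common forms, Cox4i1 was at 13.46 and 13.48, then 13.46 on both arrays, then 13.80 on both withdrawal arrays, 0.33 above control (SE 0.05, adjusted p = 0.00198). Cox8a was at 12.62 and 12.68, then 12.41 and 12.53, then 12.94 and 13.01, which was 0.33 above control (SE 0.06, adjusted p = 0.00698). Ndufa4, long counted with complex I and found to be a subunit of complex IV, was at 12.58 and 12.62, then 12.44 on both arrays, then 12.93 and 12.95 (0.34 above control, SE 0.05, adjusted p = 0.00209). For Cox4i1, Cox8a and Ndufa4 the difference from control lay at -0.05, -0.05 and -0.04 on the hybridization spike scale. Cox6a1 (14.06 and 14.07, then 13.93 and 13.90, then 14.25 and 14.21) rose by 0.32 from TGF-β (adjusted p = 0.00283), but its difference from control of 0.17 (adjusted p = 0.0346) was lost when any array was left out. Cox6b1 was 0.19 above control (adjusted p = 0.0186), a call lost without either control or either withdrawal array. Cox7a2 was not called in any comparison (0.10 above control after withdrawal, adjusted p = 0.183).

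Of the 8 restricted forms 0 were called with TGF-β, and after withdrawal 1 was higher and 2 were lower in each comparison. These were 12.5% and 25%, beside 21.8% and 22.1% of all genes against TGF-β and 21.7% and 23.6% against control. Cox4i2, Cox6b2 and Cox7b2 lay at background, where a change could go unseen, and the difference between common and restricted forms was not tested. Cox7a1, the heart and muscle form of Cox7a, was at 5.91 and 6.12 in control, 5.71 and 5.25 with TGF-β, and 6.44 and 6.70 after withdrawal. It was called higher after withdrawal than with TGF-β (log2 1.09 as measured, SE 0.17, adjusted p = 0.003). Both TGF-β arrays lay below the median of all probe sets, and with that median (5.79) as the floor the withdrawal mean was at least 1.72-fold higher. The SDs of its arrays in the 3 groups were 0.15, 0.33 and 0.18. The difference from control of 0.56 (adjusted p = 0.0411) was lost when any control or withdrawal array was left out. Cox8b and Ndufa4l2, forms known from heart muscle and from hypoxic cells, were at -0.28 and -0.27 against control after withdrawal (adjusted p = 0.0164 and 0.0233). Both calls were lost without either control array, and that of Cox8b also without withdrawal replicate 1 and that of Ndufa4l2 without withdrawal replicate 2. Cox4i2, Cox6a2, Cox6b2, Cox7b2 and Cox8c were not called, with differences from control of -0.23 to 0.11 after withdrawal. Beside these values, the mean of 12 striated muscle markers was 5.01 to 5.43 on all arrays, with 9 of the 12 below the median of all probe sets. Tnnt2, a cardiac troponin gene, was the marker that moved most, from 9.84 and 9.77 in control to 10.45 and 10.42 with TGF-β and 6.84 and 7.07 after withdrawal, and its part in the isoform values was not tested.

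In complex V few genes were called after withdrawal. With TGF-β 1 of its 17 genes rose and 4 fell (5.88% and 23.5%, beside 15% and 17.5% of all genes). From TGF-β to withdrawal 3 rose (17.6%, under the 21.8% of all genes) and 1 fell (0 and 1 on the hybridization spike scale). After withdrawal 3 were higher and 1 lower than in control (0 and 10 on the hybridization spike scale). As deposited the latter were 17.6% and 5.88%, beside 21.7% and 23.6% of all genes. Atp5b, the catalytic subunit, was at 13.60 and 13.61 in control, 13.51 on both TGF-β arrays, and 13.57 and 13.60 after withdrawal, and was not called (-0.09 with TGF-β, adjusted p = 0.211). The genes that fell with TGF-β were Atp5pb (-0.26), Atp5a1 (-0.23), Atp5g3 (-0.22) and Atp5j2 (-0.17), all with adjusted p between 0.0125 and 0.0464. A second bright probe set of Atp5a1 was at -0.04 (adjusted p = 0.673 over all probe sets). Atp5md, a small membrane subunit of the ATP synthase also called DAPIT, was at 11.69 and 11.76 in control, 12.10 and 12.16 with TGF-β and 12.16 on both withdrawal arrays. It rose by 0.40 (SE 0.05, 1.32-fold, adjusted p = 0.00242) and stayed up (0.44, adjusted p = 0.00109), in arrays that did not overlap with control. Both calls were lost under either spike scaling, with positive differences kept.

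The ring of subunit c is encoded by 3 genes, Atp5g1, Atp5g2 and Atp5g3, whose products differ in their import leader and give the same mature protein. These genes went different ways. Atp5g1 was at 11.89 and 11.98 in control, 12.0004 and 12.0268 with TGF-β, and 11.47 and 11.46 after withdrawal, 1.38-fold below control (log2 -0.46, SE 0.05, adjusted p = 0.000795). Atp5g2 was at 11.76 and 11.81, then 11.87 and 11.89, then 12.28 and 12.24, 1.39-fold above control (log2 0.48, SE 0.05, adjusted p = 0.000532; lost under either spike scaling, with the sign kept). Atp5g3 was at 13.59 and 13.61, then 13.39 and 13.37, then 13.48 and 13.47, below control with TGF-β (-0.22, adjusted p = 0.0151; lost without any of the control or TGF-β arrays, adjusted p up to 0.0832) and not called after withdrawal (-0.13, adjusted p = 0.0775). The withdrawal arrays thus stood below all others for Atp5g1 and above all others for Atp5g2. A test of the difference between the genes was not run. The only other probe set of Atp5g1 was dim (mean 3.76) and gave 0.14 (adjusted p = 0.363 over all probe sets), whereas a second probe set of Atp5g2 gave 0.54 (adjusted p = 0.00723).

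The 8 assembly factors of complex I held the largest falls after withdrawal, both against TGF-β and against control. With TGF-β 0 rose and 5 fell (62.5%, beside 17.5% of all genes). From TGF-β to withdrawal 2 rose (25%, beside 21.8%) and 5 fell (62.5%, beside 22.1%). Against control 1 was higher (12.5%, beside 21.7%) and 5 were lower (62.5%, beside 23.6%). The medians were -0.21, -0.27 and -0.29. Relative to all genes these medians were -0.20, -0.24 and -0.25. Ndufaf6, needed for the membrane arm, was at 7.91 and 7.95 in control, 7.69 and 7.62 with TGF-β, and 6.68 and 6.83 after withdrawal. The groups did not overlap, and withdrawal lay 2.26-fold below control (log2 -1.18, SE 0.07, adjusted p = 4.61e-05). Its TGF-β call (-0.28, adjusted p = 0.0256) was lost when any control or TGF-β array was left out. Ndufaf4 was at 10.34 and 10.29, then 10.13 and 10.15, then 9.27 and 9.29, which was 2.05-fold below control (log2 -1.03, SE 0.05, adjusted p = 2.36e-05). The TGF-β difference of Ndufaf4 (-0.17, adjusted p = 0.0482) lost its call in 10 of 16 other settings, the omission of any array among them. Ndufaf2, a relative of the subunit Ndufa12, was at 8.71 and 8.73, then 8.86 and 8.83, then 7.94 and 7.99, 1.68-fold below control (log2 -0.75, SE 0.05, adjusted p = 8.21e-05).

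Ndufaf3, which works with Ndufaf4 in the same early assembly step, rose on withdrawal. It was at 8.48 and 8.55 in control, 8.07 and 8.03 with TGF-β, and 8.90 and 8.95 after withdrawal. The fall of 0.47 with TGF-β (log2 -0.47, SE 0.05, 1.38-fold, adjusted p = 0.00134) was followed by a 1.84-fold rise (log2 0.88, SE 0.05, adjusted p = 6.39e-05), to 0.41 above control (adjusted p = 0.00134; 0.04 on the hybridization spike scale). Ndufaf8 fell by 0.44 with TGF-β (SE 0.05, adjusted p = 0.00107) and rose by 0.29 on withdrawal (adjusted p = 0.00402). Ndufaf5, which modifies the core subunit Ndufs7, was at -0.31 against control after withdrawal (adjusted p = 0.016; lost without either control array or withdrawal replicate 1), and Ndufaf7, a methyltransferase, was at -0.25 with TGF-β and -0.28 after withdrawal (adjusted p = 0.0293 and 0.0158).

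A single rule named the genes called in more than 1 comparison. Called lower with TGF-β and higher from TGF-β to withdrawal were Ndufaf3, Sdha, Uqcrfs1, Ndufaf8, Ndufa8 and Ndufa10 as the largest, of which Ndufa8 was still below control. Called in the same direction in both treated groups against control were, by size, Ndufaf6, Ndufaf4, Cox7a2l, Ndufa5, Atp5md and Sdhd. These comparisons share the TGF-β or the control arrays. Where a called gene had a further probe set above the median, another probe set was called the same way for 9 of 15 genes with TGF-β, 13 of 20 from TGF-β to withdrawal and 14 of 20 against control, and the opposite way for 0 in each.

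The other genes of mitochondrial metabolism were taken from lists, each with its own counts and the shares called higher and lower. Over all genes these shares were 15% and 17.5% with TGF-β, 21.8% and 22.1% on withdrawal, and 21.7% and 23.6% against control. Among 42 assembly factors outside the rule 7 rose and 11 fell with TGF-β (16.7% and 26.2%). On withdrawal 11 rose and 15 fell (26.2% and 35.7%), and 8 were higher and 16 lower than control after withdrawal (19% and 38.1%). Their members included Higd1a, which joins complex IV under low oxygen, at -1.38 against control after withdrawal (SE 0.05, adjusted p = 9.24e-06), Cox18, which inserts a mitochondrially made subunit, at -0.85 (adjusted p = 0.000107), and Sdhaf4, a complex II factor, at 0.78 (adjusted p = 6.57e-05). Cox20 and Coa3, factors of complex IV, fell by 0.73 and 0.65 with TGF-β (adjusted p = 0.000214 and 0.000222). In the list of 18 ubiquinone synthesis and cytochrome c genes, 3 rose and 4 fell with TGF-β (16.7% and 22.2%). On withdrawal 7 rose and 6 fell (38.9% and 33.3%), and 7 were higher and 8 lower than control (38.9% and 44.4%). Cycs, cytochrome c itself, was at 13.01 and 12.98, then 12.85 and 12.86, then 12.13 and 12.10 (-0.88 against control, SE 0.05, adjusted p = 3.83e-05), and Coq9, a ubiquinone synthesis protein, was at 1.02 (adjusted p = 3.99e-05).

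Of 19 genes of the citric acid cycle and pyruvate dehydrogenase, 1 rose and 8 fell with TGF-β (5.26% and 42.1%), and 10 rose and 2 fell on withdrawal (52.6% and 10.5%). Against control 8 were higher and 3 lower, or 42.1% and 15.8% (1 and 10 genes on the hybridization spike scale). Idh2, the mitochondrial NADP-dependent isocitrate dehydrogenase, was at 10.71 and 10.70, then 10.19 and 10.24, then 11.30 and 11.34, falling by 0.49 (adjusted p = 0.000786) and then standing 0.61 above control (adjusted p = 0.000185). Pcx, pyruvate carboxylase, was at 1.43 against control after withdrawal (adjusted p = 9.53e-06), and Idh3a, of the NAD-dependent enzyme, at -1.04 (adjusted p = 2.07e-05). Among 17 carriers, uncoupling proteins and porins, 1 rose and 4 fell with TGF-β (5.88% and 23.5%). On withdrawal 6 rose and 3 fell (35.3% and 17.6%), and 4 were higher and 6 lower than control (23.5% and 35.3%). Among 21 genes of glycolysis and lactate metabolism the counts were 5 and 7 (23.8% and 33.3%), 8 and 6 (38.1% and 28.6%), and 9 and 9 (42.9% each). The largest differences called against control after withdrawal were those of Eno2 (2.73), Pdk4 (2.37) and Pfkp (2.00). The control arrays of Eno2 and Pdk4 lay below the median of all probe sets. Pfkm, a phosphofructokinase, was at 1.10 and Hk2, a hexokinase, at -0.79 against control after withdrawal (adjusted p = 2.87e-05 and 7.3e-05).

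Mitochondrial ribosomal protein genes, whose products translate the mitochondrially encoded subunits, fell in the largest number. Of 76 genes 6 rose and 26 fell with TGF-β (7.89% and 34.2%). On withdrawal 6 rose and 43 fell, or 7.89% and 56.6% (5 and 6 genes on the poly-A scale). Against control 5 were higher (6.58%) and 49 lower (64.5%, beside 23.6% of all genes). The median against control was -0.34, or -0.30 relative to all genes, and Mrpl49 (-1.13) and Mrps28 (-1.08) fell most (adjusted p = 3.53e-05 and 2.45e-05). The 23 protein import genes gave 3 rises and 6 falls (13% and 26.1%), then 1 and 12 (4.35% and 52.2%). Against control they gave 3 and 14 (13% and 60.9%), with Timm50 at -1.04 and Tomm40 at -1.03. The subunits had a median of 0.09 relative to all genes after withdrawal against control, and the ribosomal and import lists a negative one (-0.30 and -0.29). This difference between lists was not tested.

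**Figure D4:**
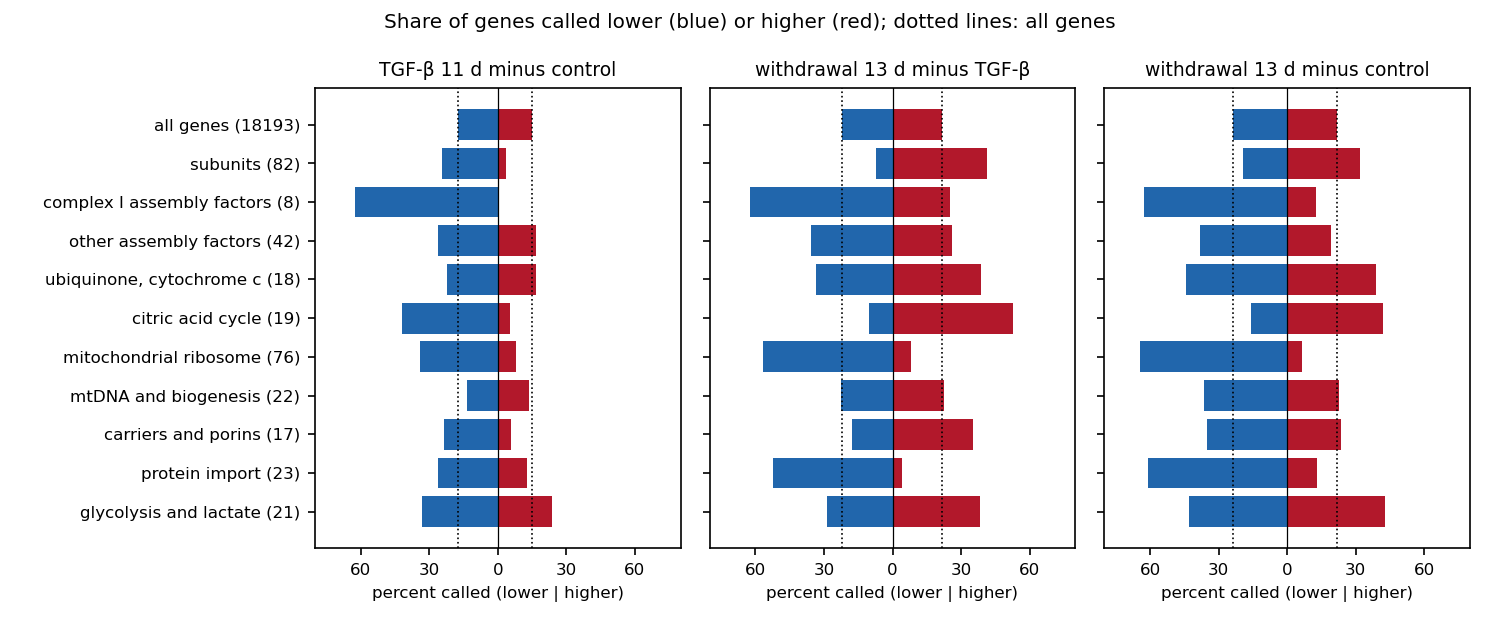
Bars give the percentage of each list called lower (blue, to the left) and higher (red, to the right) in each comparison, with the number of genes in brackets, and dotted lines mark the percentages over all genes. The subunits reach 24.4% lower with TGF-β and 41.5% higher from TGF-β to withdrawal, while mitochondrial ribosomal proteins reach 56.6% and 64.5% lower in the comparisons with withdrawal, counts that shift with the spike scalings as given in the text.

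Of 22 regulators of mitochondrial DNA and biogenesis, 3 rose and 3 fell with TGF-β (13.6% each, beside 15% and 17.5% of all genes). On withdrawal 5 rose and 5 fell (22.7% each, beside 21.8% and 22.1%), so these shares lay near those of all genes. Against control 5 were higher and 8 lower (22.7% and 36.4%, beside 21.7% and 23.6%). Ppargc1a, which encodes the coactivator PGC-1α, a regulator of respiratory genes, was at 7.46 and 7.31 in control, 4.81 and 4.58 with TGF-β, and 8.86 and 8.85 after withdrawal. Both TGF-β arrays lay below the median of all probe sets (5.79), and with that median as the floor control was at least 3.01-fold higher than TGF-β (adjusted p = 1.13e-05) and withdrawal at least 8.36-fold higher (adjusted p = 3.31e-06). The withdrawal arrays stood 1.47 above control on the log2 scale (adjusted p = 6.11e-05). Ppargc1b, its relative, was at 0.98 against control after withdrawal (adjusted p = 5.89e-05), and the third relative Pprc1 at -0.32 (adjusted p = 0.00354). Tfam, which packs and transcribes mitochondrial DNA, fell by 0.60 with TGF-β (adjusted p = 0.000766) and was at -0.52 after withdrawal (adjusted p = 0.000817). Whether any of these values bears on the subunits was not tested.

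Promoter sequence was read for the genes that moved together or apart. RefSeq windows (assembly GRCm38.p6) of 250 bases before to 50 after the start were found for 74 of the 90 genes, giving 79 windows. They were searched on both strands, with overlapping matches allowed, for GCATGCGC (the motif of NRF1, a regulator of respiratory genes), CCGGAAGT (ETS factors such as GABP), CAAGGTCA (oestrogen-related receptors, partners of PGC-1α), ATGGCGG (YY1) and TGACGTCA (CREB). The NRF1 letters were in 13.9% of the windows, beside 4.04% of the 18109 windows of all genes tested that had one. The other shares were 6.33% beside 5.83% for ETS, 5.06% beside 1.31% for the oestrogen-related receptors, 15.2% beside 5.91% for YY1 and 3.8% beside 2.49% for CREB. In the 25 windows of genes higher after withdrawal than in control 4 held the NRF1 letters, and so did 5 of the 19 windows of genes lower there. A match is a description of these letters and does not show binding.

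The 250 bases before the start are shown 5′ to 3′ on the gene's strand for the subunits that rose most against control (Ndufa6 and Uqcrh), for the subunit c genes that went apart (Atp5g2 and Atp5g1) and for an assembly factor that fell (Ndufaf4), with motif matches in capitals. The stretches are chr15:82354292-82354541 for Ndufa6, chr4:116075071-116075320 for Uqcrh, chr15:102671048-102671297 for Atp5g2 and chr11:96075632-96075881 for Atp5g1, all on the minus strand, and chr4:24897833-24898082 on the plus strand for Ndufaf4.
Ndufa6: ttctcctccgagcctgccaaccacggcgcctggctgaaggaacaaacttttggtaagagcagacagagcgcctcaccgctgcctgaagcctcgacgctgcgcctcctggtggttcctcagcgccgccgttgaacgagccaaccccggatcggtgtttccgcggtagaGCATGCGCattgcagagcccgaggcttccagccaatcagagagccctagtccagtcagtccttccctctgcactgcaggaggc
Uqcrh: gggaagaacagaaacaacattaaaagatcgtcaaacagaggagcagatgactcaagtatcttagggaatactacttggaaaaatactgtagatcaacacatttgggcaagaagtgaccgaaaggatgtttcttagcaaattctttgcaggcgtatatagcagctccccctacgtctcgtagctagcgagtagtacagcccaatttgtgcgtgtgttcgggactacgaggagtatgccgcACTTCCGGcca
Atp5g2: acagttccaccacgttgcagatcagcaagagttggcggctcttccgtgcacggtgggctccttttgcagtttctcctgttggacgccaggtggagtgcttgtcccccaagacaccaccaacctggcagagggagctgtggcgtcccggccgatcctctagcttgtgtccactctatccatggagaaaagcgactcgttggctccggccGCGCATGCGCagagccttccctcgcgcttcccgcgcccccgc
Atp5g1: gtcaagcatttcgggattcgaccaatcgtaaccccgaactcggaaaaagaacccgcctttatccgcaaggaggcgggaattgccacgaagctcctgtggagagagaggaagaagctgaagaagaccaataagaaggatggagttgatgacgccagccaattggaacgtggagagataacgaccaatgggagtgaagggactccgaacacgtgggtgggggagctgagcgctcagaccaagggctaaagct
Ndufaf4: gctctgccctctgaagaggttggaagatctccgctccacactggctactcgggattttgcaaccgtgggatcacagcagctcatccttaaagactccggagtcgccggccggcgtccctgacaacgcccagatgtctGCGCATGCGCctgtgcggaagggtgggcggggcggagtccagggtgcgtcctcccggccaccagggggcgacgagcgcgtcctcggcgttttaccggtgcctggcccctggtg
Ndufa6 holds NRF1 letters 83 bases before its start, and Uqcrh ETS letters 11 bases before. Atp5g2 and Ndufaf4 hold the palindromic NRF1 match read on both strands, in which GCATGCGC starts 40 and 111 bases before. A further NRF1 match of Ndufaf4 lay in the part of its window after the start, which is not printed. The window of Atp5g1 holds none of the motifs. Genes that rose (Ndufa6, Atp5g2) and a gene that fell (Ndufaf4) thus carried the same NRF1 letters.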

How the data were processed

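Total RNA of 6 samples was labelled with the 3′ IVT Express kit, per the labels' protocols, which reads mainly the 3′ ends of transcripts. The unit of the deposited table is log2 expression for each probe set. Per the submitters' processing notes these values come from RMA, which corrects background, normalises quantiles between arrays and summarises probes. A shift shared by all genes is thereby removed. Its software is not given in the sources used here, and no detection calls were used, so differences of dim genes are understated.

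Of 45101 probe sets, 64 were array controls, 34945 carried 1 gene symbol in the platform annotation, 932 several and 9160 none, and 34741 of those with 1 symbol matched a gene of the RefSeq table. For each of 18193 genes the probe set with the highest mean was used. Of the 90 genes studied, 51 had several probe sets, and 46 used a probe set of a kind that can match related transcripts.

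limma 3.58.1 (R 4.3.3) fitted the 3 groups together on the deposited values with eBayes, with 3 residual and 2.857 prior degrees of freedom and a median SE of 0.0701 for a log2 difference. p-values were adjusted over all genes (Benjamini-Hochberg, threshold 0.05). Only 2 arrays per group limit the precision. The fit was tested on simulated data for TGF-β against control over 18193 genes. Of 50 genes changed by each size, it called 10 at a log2 change of 0.3, 27 at 0.5, 42 at 1 and 48 at 2. Far fewer genes were changed there than were called in the data. These rates therefore cannot be carried over to the differences of the genes studied here.

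Members and lists were chosen with earlier results of these data known. The named genes were the isoform sets, the subunit c and Sdh genes, per comparison the 10 largest called rises and falls without overlap of arrays, up to 6 genes called the same way in both treated groups or the opposite way on withdrawal, the 3 highest and lowest means, and up to 4 genes per list. The core subunits of complex I and genes outside this rule (Atp5pb, Atp5a1, Atp5j2, Uqcr11 and Ndufaf7) were named after their values were seen, and the floor used for Cox7a1 and Ppargc1a was chosen then too. Alternatives were other scalings, probe set choices, filters, a replicate block and leaving out each array. Replicate numbers did not pair the samples (correlations of deviations between -0.0162 and 0.0067).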

Additional observations from a re-analysis of the deposited data

How the results depend on the processing

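Among single genes, the sign of a called difference turned on the hybridization spike scale for withdrawal against control in Cox4i1 (-0.0467), Cox6a1 (-0.21), Cox6b1 (-0.18), Cox8a (-0.051), Ndufa4 (-0.0427), Ndufs5 (-0.0311) and Sdhc (-0.0548), and for withdrawal against TGF-β in Ndufa8 (-0.0547) and Ndufb5 (-0.0474). On the poly-A scale it turned for Ndufs5 with TGF-β (-0.0322). Without probe sets ending in x, s or a, Atp5g1 was at 0.0259 from TGF-β to withdrawal and 0.14 against control, both from a dim probe set. The genes higher and lower with TGF-β were 3 and 25. The higher ones became 0 under either spike scaling, 11 with an intensity trend in the variance, 6 without the dimmest 40% of genes, and 2 to 3 with an array left out. The lower ones became 43 with the trend and 12 to 23 with an array left out. From TGF-β to withdrawal the 36 higher genes became 7 on the hybridization scale, 23 on the poly-A scale and 21 without x, s and a probe sets. The 11 lower genes became 7 with cyclic loess, 6 when only these groups were fitted, 3 on the poly-A scale, 7 without x, s and a probe sets, and 5 to 8 with an array left out. Against control, the 27 higher genes became 3, 4 and 15 on the hybridization scale, the poly-A scale and without those probe sets, and the 21 lower genes 54 on the hybridization scale, 10 on the poly-A scale and 12 to 20 with an array left out. The subunit median with TGF-β (-0.07) went to -0.22 (hybridization), -0.35 (poly-A) and -0.1003 to -0.0536 with an array left out. From TGF-β to withdrawal (0.12) it went to 0.20 (cyclic loess), -0.10 (hybridization) and 0.27 (poly-A). Against control (0.05) it went to 0.10 (cyclic loess), -0.33 (hybridization), -0.0919 (poly-A), -0.0208 (without x, s and a probe sets) and 0.0097 to 0.0483 with an array left out. The assembly factor medians went, with hybridization and poly-A spikes, to -0.37 and -0.50 (TGF-β against control), -0.49 and -0.12 (withdrawal against TGF-β), and -0.67 and -0.43 (withdrawal against control). For withdrawal against TGF-β the same median was -0.31 after renewed quantile normalisation, -0.54 without x, s and a probe sets and -0.34 to -0.20 with an array left out, and against control it was -0.33, -0.48 and -0.32 to -0.28. The spike scalings shift whole arrays, and for the other settings the cause was not tested. With the replicate block the counts higher and lower were 3 and 23, 34 and 8, and 24 and 21. Across all settings run, 10 of 19 calls of named genes were kept with TGF-β, 10 of 32 from TGF-β to withdrawal and 11 of 34 against control. Kept against control were Cox7a2l, Ndufa5, Ndufa6, Ndufa8, Ndufaf2, Ndufaf4, Ndufaf6, Ndufb10, Ndufv2, Sdhd and Uqcrh. Low signal limits Ndufb4, Cox4i2, Cox6b2 and Cox7b2, and Cox7a1 with TGF-β.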

Other observations

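Some subunit genes were read by probe sets whose annotation names several genes, which cannot be assigned to a single gene. Both probe sets shared by Ndufb4 and its copies Ndufb4b and Ndufb4c, an accessory subunit of complex I, rose with TGF-β (0.26, adjusted p = 0.0239, and 0.31, adjusted p = 0.0152, limma over all probe sets) and stood 0.39 and 0.37 above control after withdrawal (adjusted p = 0.0027 and 0.0048). The dim probe set of Ndufb4 alone was not called in any comparison. The probe set shared by Ndufs5 and its pseudogene was at 0.35 against control after withdrawal (adjusted p = 0.0069). That of Ndufs6 and its copy Ndufs6b, an accessory subunit near the NADH-oxidising end, was at -0.19 (adjusted p = 0.0484), and the brighter one of Ndufa11 and Ndufa11b was not called (-0.07, adjusted p = 0.451).

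A probe set annotated ND5, the symbol of a core complex I subunit encoded in mitochondrial DNA, had a mean of 11.36 (SD 0.10, n = 2) in control, 12.05 (SD 0.06) with TGF-β and 12.74 (SD 0.04) after withdrawal. The differences from control were 0.70 (adjusted p = 0.0011) and 1.38, and all groups were separate. No other mitochondrially encoded subunit was analysed here.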
